A study of Homo sapiens with 6 samples.

Results

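Beta-catenin and the proteins that mark it for breakdown were followed at the RNA level as 10 genes: CTNNB1, which encodes beta-catenin itself, APC, AXIN1, GSK3A, GSK3B and CSNK1A1 of the destruction complex, and DVL1, DVL2, DVL3 and FRAT1, which act against that complex. They were chosen by name, as the rows whose Ensembl identifier carries one of these symbols in GENCODE release 29. All 10 were found among the 58735 genes of the count table, and all 10 were among the 16561 genes with enough reads to be tested. The rule uses gene names and no measured value, although the set was proposed with earlier results of these data known. RNA was sequenced from 3 cultures given a negative control siRNA (NC) and 3 given an siRNA against HOXA3 (Si-HOXA3), a homeobox transcription factor gene of the pharyngeal region. Every culture was made from H9, an established line of hESCs first grown on mouse feeder cells, that was turned to endoderm with Activin A at 100 ng/ml and, on the first day, WNT3A at 50 ng/ml and Y-27632 at 10 µM. At day 4 the cells were replated, and both groups then received retinoic acid at 1 µM, SB431542 at 10 µM, BMP4 at 20 ng/ml and IWP2 at 2.5 µM on the way to endoderm of the third pharyngeal pouch (3PPE). The siRNA was given at day 7 and RNA was taken at day 9. IWP2 blocks Porcupine, the enzyme that readies Wnt ligands for secretion, and the methods give IWR1, another Wnt pathway inhibitor, as an alternative to it. Some hours after the siRNA was added, both groups were moved to opti-MEM, so the inhibitor was shared by NC and Si-HOXA3 up to that change of medium and is not stated for the time after it. Both groups come from 1 cell line and 1 siRNA each, the labels do not say that the 3 libraries of a group came from separate differentiations, and a caption of the paper that covers these libraries along with other assays speaks of independent biological repeats. Where the libraries are not separate cultures, the p-values measure the spread between these libraries, which may be technical.

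In the absence of a Wnt signal, the scaffolds APC and AXIN1 hold beta-catenin next to casein kinase 1 alpha (CSNK1A1) and GSK3, whose phosphorylation sends it to the proteasome. When Wnt binds its receptors, Dishevelled proteins (DVL1 to DVL3) draw the scaffold to the membrane, beta-catenin is no longer destroyed, and it enters the nucleus to act with TCF and LEF factors. Beta-catenin also ties cadherins to the actin cytoskeleton at cell junctions, and most control of its amount is exerted on the protein, which was not measured here.

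Before the single genes, 3 facts about the libraries bear on all of them. First, HOXA3, the targeted gene, was at 16.7, 15.9 and 15.5 CPM, the counts scaled to a common normalized library size, in the NC libraries and at 10.9, 13.2 and 15.5 CPM in the Si-HOXA3 libraries. The highest Si-HOXA3 library lay level with the lowest NC library, and the log2 fold change was -0.28 ± 0.16 (SE, n = 3 and 3; edgeR's quasi-likelihood test with Benjamini-Hochberg adjustment, unadjusted p = 0.108, adjusted p = 0.828). The paper itself reports reduced HOXA3 after this siRNA, in mRNA by qRT-PCR and in protein by Western blot. Second, Si-HOXA3 replicate 2 stood apart: the chi-square per degree of freedom was 31 and 34.1 against the other Si-HOXA3 libraries and 4.83 to 9.48 for the other pairs within a group. That library was the highest or lowest of the 6 for 58.1% of tested genes, against 22.8% to 34.5% for each other library. Among the 10 genes it was the extreme library for 8, being lowest for APC, GSK3B, CSNK1A1, DVL2, DVL3 and FRAT1 and highest for CTNNB1 and GSK3A. Each comparison was therefore repeated without it. Last, the defining markers of the labelled cell type were present only in part. FOXA2, SOX17 and PAX1 had between 0 and 2 counts in every library, and 5 of the 10 endoderm and pouch markers passed the filter on low counts. The summed level of those 10 markers was 361 to 371 CPM in NC and 362 to 485 CPM in Si-HOXA3, most of it from EPCAM, a general epithelial gene, at 253.0 to 386.3 CPM. EYA1 was at 32.02 to 44.58 CPM and BMP4 at 39.5 to 50.3 CPM over the 6 libraries. The 10 markers of amnion and trophoblast summed to 2975 to 3228 CPM in NC and 3079 to 3334 CPM in Si-HOXA3, and 8 of mesenchyme and fibroblasts to 4409 to 4593 and 4405 to 4920 CPM. Although these sums overlapped between the groups, 2 of the 9 tested amnion and trophoblast markers, TFAP2A and TFAP2B, and 2 of the 8 of mesenchyme, DCN and THY1, were higher in Si-HOXA3 at an unadjusted p under 0.05 in edgeR, none at the adjusted threshold. The largest of these was TFAP2B, with a log2 fold change of 0.60 (edgeR, adjusted p = 0.486). Without Si-HOXA3 replicate 2, 5 of the amnion and trophoblast markers and 4 of the mesenchyme markers had an unadjusted p under 0.05. Among them KRT7, CGA and LUM were lower in Si-HOXA3, and DCN was no longer among them (edgeR, unadjusted p = 0.214). Of all genes, 6.36% had an unadjusted p under 0.05 with all libraries and 10.7% without Si-HOXA3 replicate 2. The 6 markers of pluripotent cells summed to 1139 to 1181 CPM in NC and 1190 to 1326 CPM in Si-HOXA3, which did not overlap. LIN28A gave most of this, at 1036 to 1063 and 1078 to 1196 CPM. POU5F1 was at 4.77 to 5.9 and 6.26 to 8.51 CPM, and NANOG and TDGF1 had at most 4 counts in a library. LIN28A and POU5F1 thus had groups that did not overlap, Si-HOXA3 higher, 2 of the 4 tested markers (edgeR, unadjusted p = 0.245 and 0.103). The same held for 3 of the 9 tested amnion and trophoblast markers and 2 of the 8 of mesenchyme, against 6.41% of all genes. No marker was separated with Si-HOXA3 lower. Neural and hepatic markers stayed between 3.38 and 11.2 CPM in sum. The cultures are called 3PPE below only as the labels name them, the part of these other cell types in the results was not tested, and in bulk RNA fewer cells of a type and less RNA per cell cannot be told apart.

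In edgeR's quasi-likelihood test 0 of the 10 genes reached an adjusted p under 0.05, beside 1 of all 16561 genes (0.00604%). GSK3B alone had an unadjusted p under 0.05, 1 of 10 genes against a background of 6.36% of all genes tested. It was also the only one whose groups did not overlap, on the lower side, as for 6.88% of all genes, and none was separated on the higher side, as for 6.41%. DESeq2 and limma-voom also gave 0 of the 10 at the adjusted threshold. The signs were even, with 5 genes lower and 5 higher in Si-HOXA3. The median log2 fold change of the 10 was -0.007, beside 0.0019 for all genes, of which 49.6% were below 0. In absolute terms the median log2 fold change was 0.094 for the 10 genes and 0.139 for all genes. The 95% interval held 0 for 9 of the 10 and lay within 1 log2 unit of 0 for 9 of the 10, the wider one being that of FRAT1. Without FRAT1, no interval reached beyond 0.48 log2 units in either direction, and as folds of NC those 9 intervals stayed between 0.716, the lower bound of GSK3B, and 1.33, the upper bound of DVL1. Without Si-HOXA3 replicate 2, no gene passed the adjusted threshold, 6 were lower and 4 higher, the median was -0.053, and GSK3B and DVL2 had an unadjusted p under 0.05 against 10.7% of all genes.

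**Figure D1:**
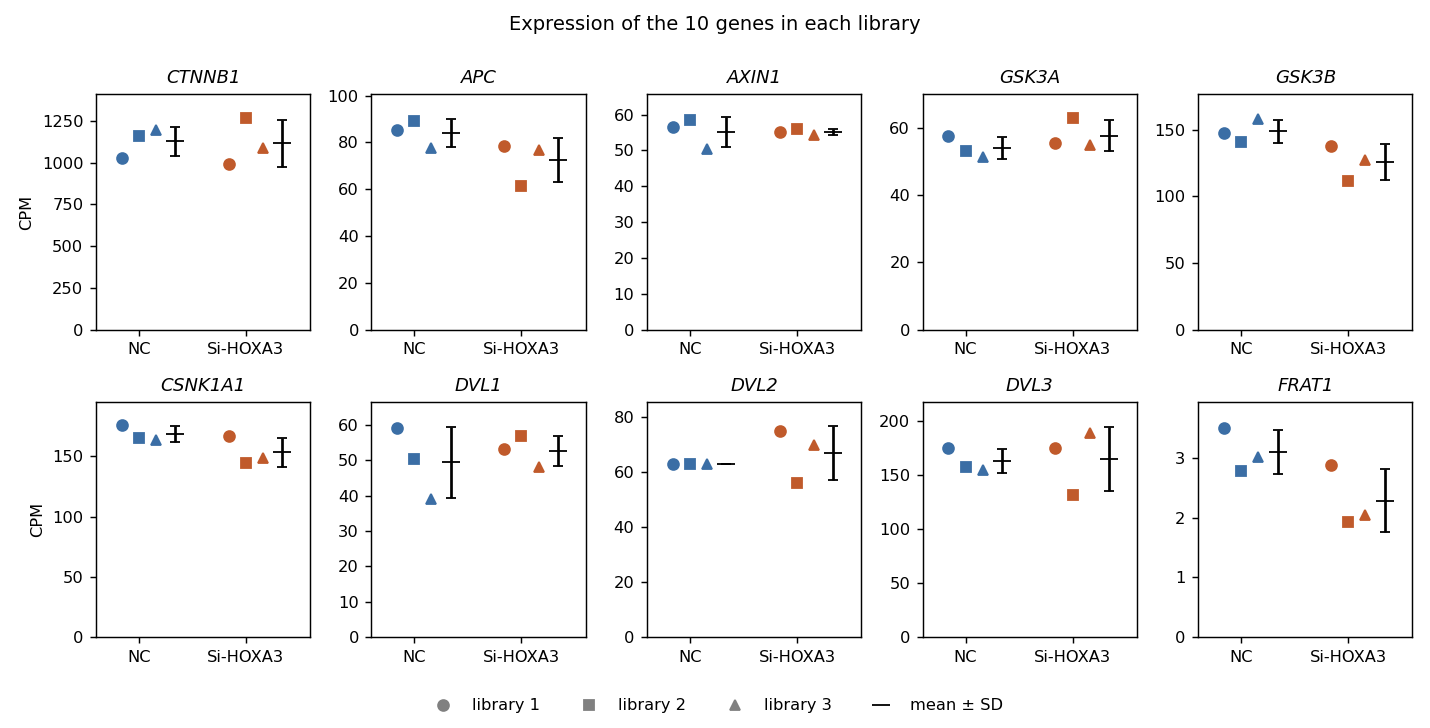
CPM (vertical axis, from 0) of each of the 10 genes in the 3 NC (blue) and 3 Si-HOXA3 (orange) libraries, with the mean ± SD beside each group and the symbol giving the replicate. Only the GSK3B points are fully separated, from 141.0 to 158.1 CPM in NC and from 111.5 to 137.9 CPM in Si-HOXA3.

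CTNNB1 (ENSG00000168036, GRCh38 chromosome 3 from 41194741 to 41260096, plus strand) is the end point of the pathway, and of the 10 transcripts it had the highest level for its length. Its level was 1030, 1160 and 1196 CPM in NC and 993.3, 1267 and 1087 CPM in Si-HOXA3. The lowest and the highest of the 6 libraries were both Si-HOXA3 libraries, so the NC values lay inside the range of the other group. The means were 1129 ± 87.1 and 1116 ± 139 CPM (SD, n = 3). The log2 fold change was -0.017 ± 0.126 (SE; 95% interval -0.30 to 0.26; edgeR, adjusted p = 0.983). Leaving out Si-HOXA3 replicate 2, the highest library, moved it to -0.12 (unadjusted p = 0.142 in edgeR). With at least 14448 counts in every library, counting error was at most 0.832%, and the 7.72% and 12.4% variation within the groups was almost all between libraries.

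The levels can be set against each other only per transcript length, for which CPM was divided by the length in kilobases of the longest coding transcript. On this scale CTNNB1 was at 238 ± 18.4 CPM per kilobase in NC and 236 ± 29.3 in Si-HOXA3 (SD, n = 3), above 99.0% of the 13409 tested genes with a coding transcript. DVL3 followed at 30.5 ± 2.09 CPM per kilobase in NC and CSNK1A1 at 27.7 ± 1.07. DVL2 at 20.9 ± 0.0449 and GSK3B at 19.3 ± 1.12 CPM per kilobase came next. DVL3 and CSNK1A1, and likewise DVL2 and GSK3B, were separated in NC by little more than their spread. GSK3A at 15.4 ± 0.929, DVL1 at 15.3 ± 3.08 and AXIN1 at 15.1 ± 1.15 CPM per kilobase did not differ beyond their spread. APC, the longest coding transcript of the set, was at 7.86 ± 0.552 CPM per kilobase, near the middle of all coding genes, above 47.3% of them. FRAT1 was lowest at 1.17 ± 0.138, above 15.8%. The scale depends on the transcript taken: with all annotated exons merged, CTNNB1, which has 56 annotated transcripts, was at 94.6 CPM per kilobase in NC, and CTNNB1 and FRAT1 kept their places at the ends. The order between them did not hold: DVL2 was at 11.8, below GSK3B at 18.2, GSK3A at 13.1 and DVL1 at 13.0, and AXIN1 at 7.35 ± 0.557 lay near APC at 6.76 ± 0.475 (SD, n = 3).

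**Figure D2:**
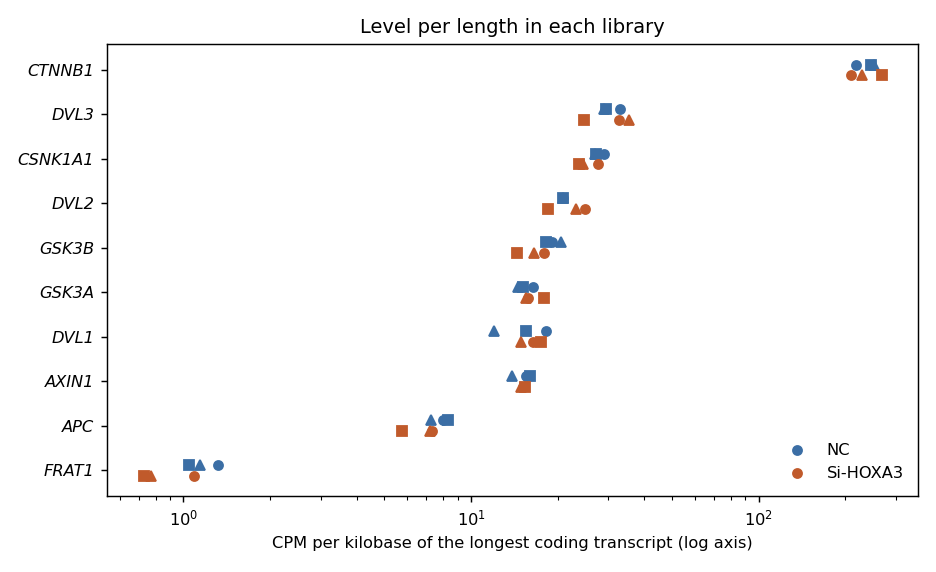
CPM per kilobase of the longest coding transcript (horizontal log axis) for each gene, ordered by its NC mean, with NC libraries in blue and Si-HOXA3 libraries in orange. CTNNB1 at 238 in NC lies alone at the right, 8 genes lie between 7.86 and 30.5, and FRAT1 at 1.17 lies alone at the left.

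Of the scaffolds, APC (ENSG00000134982, chromosome 5 from 112707498 to 112846239, plus strand), the large protein that binds both AXIN1 and beta-catenin, was at 85.4, 89.2 and 77.6 CPM in NC and 78.6, 61.6 and 76.9 CPM in Si-HOXA3. The groups overlapped by a single library, Si-HOXA3 replicate 1, which passed the lowest NC library. The log2 fold change was -0.22 ± 0.12 (SE; 95% interval -0.48 to 0.042; edgeR, adjusted p = 0.818), and it was -0.12 without Si-HOXA3 replicate 2, the lowest library. AXIN1 (ENSG00000103126, chromosome 16 from 287440 to 352673, minus strand), the scaffold whose small amount is thought to limit assembly of the complex, was at 56.5, 58.4 and 50.4 CPM in NC and 55.1, 56.0 and 54.4 CPM in Si-HOXA3. All 3 Si-HOXA3 libraries lay inside the NC range. Its means were 55.1 ± 4.17 and 55.2 ± 0.811 CPM (SD, n = 3), and the log2 fold change was 0.003 ± 0.103 (SE; 95% interval -0.22 to 0.23).

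GSK3B (ENSG00000082701, chromosome 3 from 119821323 to 120094417, minus strand) encodes the better known of the paralogous kinases that phosphorylate beta-catenin for destruction. Its level was 147.4, 141.0 and 158.1 CPM in NC and 137.9, 111.5 and 127.4 CPM in Si-HOXA3. Every Si-HOXA3 library was below every NC library, with a gap of a few CPM between Si-HOXA3 replicate 1 and NC replicate 2. The Si-HOXA3 mean of 126 ± 13.3 CPM was 84.4% of the NC mean of 149 ± 8.64 CPM (SD, n = 3), and the difference did not pass the test over all genes (log2 fold change -0.24 ± 0.11, SE; 95% interval -0.48 to -0.008; edgeR, unadjusted p = 0.044, adjusted p = 0.762). The two-sided exact permutation test of the 6 CPM values gave p = 0.1, the smallest value that 3 libraries against 3 allow. Without Si-HOXA3 replicate 2, the lowest library, the log2 fold change was -0.17 (edgeR, unadjusted p = 0.0393, adjusted p = 0.44). Groups that are separated with all libraries cannot come to overlap when 1 is left out, so their separation in that comparison adds nothing. Of all genes, 14.0% were then separated on the lower side. Without any 1 NC library, or without Si-HOXA3 replicate 3, the unadjusted p in edgeR was between 0.0646 and 0.151.

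GSK3A (ENSG00000105723, chromosome 19 from 42230186 to 42242625, minus strand), which can take the place of GSK3B in the complex, was at 57.7, 53.3 and 51.4 CPM in NC and 55.5, 63.1 and 54.9 CPM in Si-HOXA3. The groups overlapped, and the highest value came from Si-HOXA3 replicate 2. Its log2 fold change was 0.096 ± 0.107 (SE; 95% interval -0.14 to 0.33), and 0.025 without that library. Within each library the log2 ratio of GSK3B to GSK3A, a quantity used here only to compare groups, was 1.344, 1.396 and 1.612 in NC and 1.306, 0.816 and 1.208 in Si-HOXA3. All Si-HOXA3 ratios were below all NC ratios, with means of 1.45 ± 0.142 and 1.11 ± 0.259 (SD, n = 3). The ratio uses the same GSK3B values, already separated on the lower side, so it is not independent of the GSK3B result. The difference of -0.34 log2 units gave p = 0.1 in the two-sided exact permutation test, again the smallest possible, and it shrank to -0.19 without Si-HOXA3 replicate 2. The summed level of both kinases was 205, 194 and 209 CPM in NC and 193, 175 and 182 CPM in Si-HOXA3. A reservation on GSK3A is that 11.281% of its 50-base stretches also occur in other transcripts, among them the overlapping AC006486.1, which had no count in any library.

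CSNK1A1 (ENSG00000113712, chromosome 5 from 149492197 to 149551552, minus strand), the priming kinase that acts on beta-catenin before GSK3, was at 175.6, 165.4 and 163.4 CPM in NC and 167.1, 144.4 and 148.7 CPM in Si-HOXA3. Replicates 2 and 3 of Si-HOXA3 lay below all NC libraries and replicate 1 lay among them. The log2 fold change was -0.13 ± 0.0992 (SE; 95% interval -0.35 to 0.085; edgeR, adjusted p = 0.85). Its counts are uncertain, because 36.539% of its 50-base stretches are shared with other transcripts, chiefly AC021078.1 on the same strand, whose exons overlap it by 2886 bases and which was itself given 459 to 609 counts per library.

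**Figure D3:**
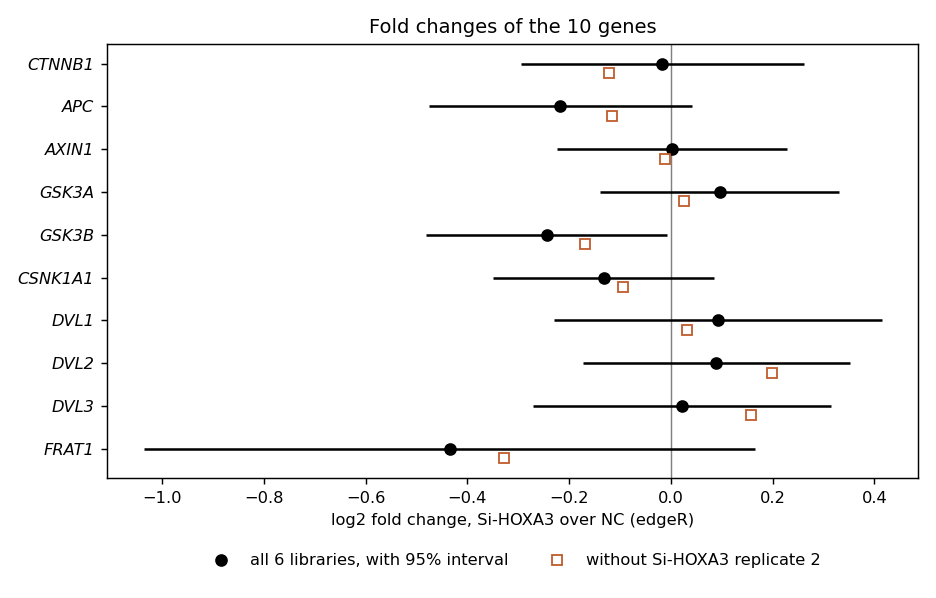
log2 fold change of Si-HOXA3 over NC (horizontal axis) for the 10 genes with all 6 libraries (filled circles, lines giving the 95% interval) and without Si-HOXA3 replicate 2 (open squares). The GSK3B interval, from -0.48 to -0.008, is the only one that leaves out 0, and that of FRAT1 is the widest.

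The Dishevelled genes carry the signal from the receptors to the AXIN1 scaffold. DVL1 (ENSG00000107404, chromosome 1 from 1335276 to 1349350, minus strand) was at 59.0, 50.2 and 39.0 CPM in NC and 53.0, 56.7 and 48.2 CPM in Si-HOXA3. All Si-HOXA3 values fell within the NC range, whose coefficient of variation of 20.2% was the highest of the 10 genes in NC. DVL2 (ENSG00000004975, chromosome 17 from 7225341 to 7234545, minus strand) was at 62.9, 62.9 and 63.2 CPM in NC and 75.0, 56.1 and 69.9 CPM in Si-HOXA3. The NC libraries were closer together (0.215%) than the counting error of a single library, 3.44%, while the Si-HOXA3 libraries lay on either side of them. The log2 fold change of DVL2 was 0.089 ± 0.119 (SE; 95% interval -0.17 to 0.35; edgeR, adjusted p = 0.913). Without Si-HOXA3 replicate 2 it was 0.20 (edgeR, unadjusted p = 0.0269, adjusted p = 0.404), with both remaining libraries above all NC libraries, as for 13.7% of all genes. Without Si-HOXA3 replicate 1 it was 0.001 (edgeR, unadjusted p = 0.997). DVL3 (ENSG00000161202, chromosome 3 from 184155311 to 184173614, plus strand) was at 175.6, 157.5 and 155.2 CPM in NC and 175.0, 131.9 and 188.8 CPM in Si-HOXA3. Its lowest and highest values were both in Si-HOXA3, and the log2 fold change went from 0.022 ± 0.133 (SE; 95% interval -0.27 to 0.32) to 0.16 without Si-HOXA3 replicate 2 (edgeR, unadjusted p = 0.0518). The sum of the 3 Dishevelled genes was 297, 271 and 257 CPM in NC and 303, 245 and 307 CPM in Si-HOXA3, a difference of means within the spread (275 ± 20.4 and 285 ± 34.9, SD, n = 3). Si-HOXA3 replicate 2 thus gave the lowest DVL2, DVL3 and summed values but not the lowest DVL1 value.

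FRAT1 (ENSG00000165879, chromosome 10 from 97319267 to 97321915, plus strand, 1 exon), a GSK3-binding protein that keeps the kinase from AXIN1, was the rarest of the 10 transcripts, with counts of 52, 42 and 46 in the NC libraries against 42, 29 and 29 in the Si-HOXA3 libraries. These counts were worth 3.49, 2.78 and 3.01 CPM in NC and 2.89, 1.93 and 2.04 CPM in Si-HOXA3. Si-HOXA3 replicate 1 lay above the lowest NC library and the remaining Si-HOXA3 libraries lay below all 3. The mean was 3.09 ± 0.364 and 2.29 ± 0.524 CPM (SD, n = 3), so that Si-HOXA3 was at 73.9% of NC. The log2 fold change of -0.44 ± 0.27 was the largest of the set and the least precise (SE; 95% interval -1.04 to 0.17; edgeR, adjusted p = 0.829), and a single library of 29 counts has a counting error of 18.6%. A difference of this size could not be told from no difference at this depth. Without Si-HOXA3 replicate 2 it was -0.33 (edgeR, unadjusted p = 0.296).

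**Figure D4:**
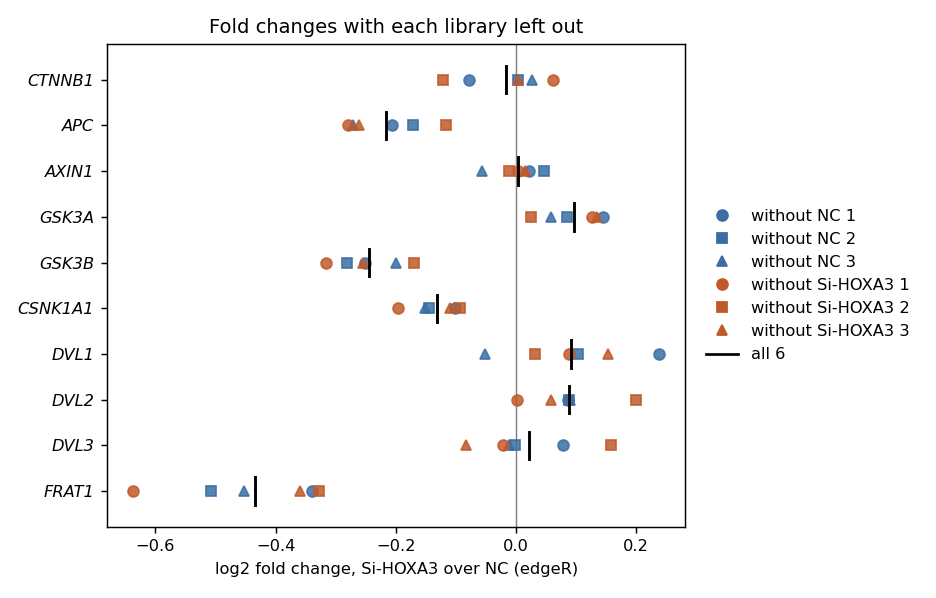
log2 fold change of Si-HOXA3 over NC (horizontal axis) with each of the 6 libraries left out in turn (blue for NC, orange for Si-HOXA3, symbol for the replicate), and with all 6 (black bars). CTNNB1, AXIN1, DVL1 and DVL3 fall on both sides of 0, and APC, GSK3B, CSNK1A1 and FRAT1 stay below it, as GSK3A and DVL2 stay above it.

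The promoters of these genes are shown for CTNNB1, the gene with the highest level per length, for GSK3B as the gene with separated groups, and for DVL1 as one that holds the core letters of homeobox binding sites. Each runs from 250 bases before to 50 after the RefSeq gene start on GRCh38.p14 and is written 5′ to 3′ on the gene's own strand, with matches in capitals. The motifs searched on both strands were TAAT, the core of HOX sites, CTTTG, the core of TCF and LEF sites, CCAAT, and GGGCGG, the GC box, and adjoining or overlapping GC boxes run together. The window of CTNNB1 is chr3:41199255-41199554 on the plus strand, that of GSK3B is chr3:120094398-120094697 on the minus strand, and that of DVL1 is chr1:1349369-1349668 on the minus strand.
CTNNB1: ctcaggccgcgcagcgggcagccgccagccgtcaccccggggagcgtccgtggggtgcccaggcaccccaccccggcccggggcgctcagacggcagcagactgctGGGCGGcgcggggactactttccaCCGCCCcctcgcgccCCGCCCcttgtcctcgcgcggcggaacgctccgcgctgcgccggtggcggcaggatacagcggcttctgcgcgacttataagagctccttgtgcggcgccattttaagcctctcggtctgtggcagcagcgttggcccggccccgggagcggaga
GSK3B: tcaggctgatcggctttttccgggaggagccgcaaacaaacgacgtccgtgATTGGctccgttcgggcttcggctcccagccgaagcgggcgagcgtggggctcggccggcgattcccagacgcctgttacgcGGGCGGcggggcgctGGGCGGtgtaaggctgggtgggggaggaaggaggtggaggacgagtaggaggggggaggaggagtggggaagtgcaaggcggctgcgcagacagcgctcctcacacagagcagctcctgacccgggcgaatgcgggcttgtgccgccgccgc
DVL1: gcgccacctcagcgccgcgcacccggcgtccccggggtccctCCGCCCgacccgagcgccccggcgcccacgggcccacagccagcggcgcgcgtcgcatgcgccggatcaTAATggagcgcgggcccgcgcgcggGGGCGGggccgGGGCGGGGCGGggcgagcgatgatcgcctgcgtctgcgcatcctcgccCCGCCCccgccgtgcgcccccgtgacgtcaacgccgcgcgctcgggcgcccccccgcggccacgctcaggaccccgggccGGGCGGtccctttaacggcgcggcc

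TAAT occurred 0 times in the windows of CTNNB1 and GSK3B and 1 time in that of DVL1. GC boxes occurred 3 times in CTNNB1, 2 times in GSK3B and 6 times in DVL1, and the single CCAAT of GSK3B reads as ATTGG on the strand shown. All 10 genes had a window in the RefSeq table, 12 windows in all, since APC and CSNK1A1 have a pair each. Apart from DVL1, TAAT was found in the GSK3A window (1 match), in both windows of APC (2 and 1) and in the downstream window of CSNK1A1 (5). CTTTG was found only in that downstream window of CSNK1A1 (1 match). GC boxes were absent only from the same window, the upstream window of APC and the window of FRAT1. CCAAT was found in the windows of GSK3B, DVL2 and FRAT1 and in the downstream windows of APC and CSNK1A1. Of all 35116 promoter windows, 50.2% hold TAAT, 47.5% CTTTG, 34.6% CCAAT and 45.0% GGGCGG. These matches are letters in a window and no measure of binding. The DVL1 window was 82.7% G and C, that of CTNNB1 74.0% and that of GSK3B 69.3%, beside a median of 58.7% over all windows.

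The other genes of the pathway were taken as 7 lists with 85 genes, of which 76 were tested. In edgeR, DESeq2 and limma-voom 0 had an adjusted p under 0.05, and in edgeR 42 were lower and 34 higher in Si-HOXA3, and the median log2 fold change was -0.016. There were 4 with an unadjusted p under 0.05, 5.26% of those tested and all 4 higher in Si-HOXA3, against 6.36% of all genes in either direction. On the other measure, 6 genes (7.89%) were separated on the higher side, against 6.41% of all genes, and 1 (1.32%) on the lower side, against 6.88%.

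Among 12 Wnt receptors, 10 were tested, with 6 lower and 4 higher and a median log2 fold change of -0.045. The only one with an unadjusted p under 0.05 was FZD8, a Frizzled receptor, at 38.9, 36.1 and 35.6 CPM in NC and 42.9, 43.2 and 43.8 CPM in Si-HOXA3 (log2 fold change 0.23 ± 0.10, SE; edgeR, unadjusted p = 0.0458, adjusted p = 0.769). Of 11 paralogs and scaffolds of the destruction complex, 10 were tested, 5 lower and 5 higher, with a median of 0.001. CSNK1G2, a casein kinase 1 gamma that acts at the membrane, was at 83.1, 83.2 and 66.0 CPM in NC and 89.0, 105.7 and 89.7 CPM in Si-HOXA3 (log2 fold change 0.29 ± 0.12, SE; edgeR, adjusted p = 0.741). FRAT2, the paralog of FRAT1, named here after its values were seen, was at 11.8, 12.0 and 12.2 CPM in NC and 12.9, 16.1 and 13.0 CPM in Si-HOXA3. Its groups did not overlap and its direction was opposite to that of FRAT1, but neither passed the test (log2 fold change of FRAT2 0.23 ± 0.15, SE; edgeR, adjusted p = 0.841), and the difference between the paralogs was not tested. The log2 fold change of FRAT2 without Si-HOXA3 replicate 2 was 0.11 (edgeR, unadjusted p = 0.481).

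The ubiquitin ligase, phosphatase and tankyrase genes, which finish or undo the work of the complex, were all tested, 18 of 18. Of these, 12 were lower and 6 higher, the median was -0.025, and none had an unadjusted p under 0.05. The smallest p was that of TNKS2, a tankyrase that marks AXIN1 for breakdown (log2 fold change -0.14 ± 0.11, SE; edgeR, unadjusted p = 0.241, adjusted p = 0.856). TNKS2 was at -0.048 without Si-HOXA3 replicate 2, and 2 other genes of the list, named after their values were seen, had an unadjusted p under 0.05, against 10.7% of all genes. These were the phosphatase subunit gene PPP2CA, at -0.28, and the ubiquitin ligase subunit gene SKP1, at -0.24. Of 10 Dishevelled-binding genes, 9 were tested, 5 lower and 4 higher, with a median of -0.032 and no unadjusted p under 0.05. DACT2 came nearest, at 2.08, 3.50 and 2.82 CPM in NC and 1.44, 2.59 and 1.83 CPM in Si-HOXA3, where the groups overlapped (log2 fold change -0.51 ± 0.32, SE; edgeR, adjusted p = 0.829). Without Si-HOXA3 replicate 2 its log2 fold change was -0.78 (edgeR, unadjusted p = 0.041, adjusted p = 0.447). In the same fit CCDC88C, named after its values were seen, went the other way at 0.22 (edgeR, unadjusted p = 0.0406), from 0.025 with all libraries.

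Of beta-catenin's nuclear partners all 17 were tested, 8 lower and 9 higher, with a median of 0.023. LEF1, a DNA-binding partner that is also a Wnt target in many tissues, was at 10.4, 11.4 and 12.8 CPM in NC and 14.2, 14.4 and 15.8 CPM in Si-HOXA3. All its Si-HOXA3 libraries were above all NC libraries, although it did not pass the adjusted threshold (log2 fold change 0.36 ± 0.15, SE; edgeR, unadjusted p = 0.0347, adjusted p = 0.741). The median of this list was 0.099 without Si-HOXA3 replicate 2, with 6 of 17 genes under an unadjusted p of 0.05 in place of 1, against 10.7% of all genes. All 6 were then higher in Si-HOXA3: LEF1 and, named after their values were seen, TCF7L1, CHD8, CREBBP, EP300 and SMARCA4. CHD8 and EP300 were at -0.072 and -0.07 with all libraries, so their direction turned on that library. PYGO2, named after its values were seen, was also separated on the higher side. Of 9 junction partners, 8 were tested, 4 lower and 4 higher, with a median of -0.004. CDH2, N-cadherin, was at 29.5, 32.1 and 33.2 CPM in NC and 40.6, 39.2 and 34.9 CPM in Si-HOXA3 (log2 fold change 0.28 ± 0.11, SE; edgeR, unadjusted p = 0.0339, adjusted p = 0.741). The gene separated on the lower side, VCL, which links the junction to actin and is named after its values were seen, had a log2 fold change of -0.20 with all libraries and -0.04 without Si-HOXA3 replicate 2.

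Of 12 Wnt feedback and target genes, 7 were tested, 2 lower and 5 higher, with a median of 0.059, and 2 others had under 3 counts in every library. LEF1 was the only one with an unadjusted p under 0.05. AXIN2, the target most often read as a measure of beta-catenin activity and named after its values were seen, was at 3.22, 3.11 and 3.80 CPM in NC and 3.30, 4.39 and 3.31 CPM in Si-HOXA3. These groups overlapped (log2 fold change 0.12 ± 0.24, SE; edgeR, adjusted p = 0.937), and the log2 fold change of AXIN2 was -0.034 without Si-HOXA3 replicate 2. FZD8, CSNK1G2, LEF1 and CDH2 each kept an unadjusted p under 0.05 without Si-HOXA3 replicate 2, with log2 fold changes of 0.23, 0.20, 0.37 and 0.25. Over all 13 alternatives, that was so in 4 for FZD8, 11 for CSNK1G2, 9 for LEF1 and 9 for CDH2.

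**Figure D5:**
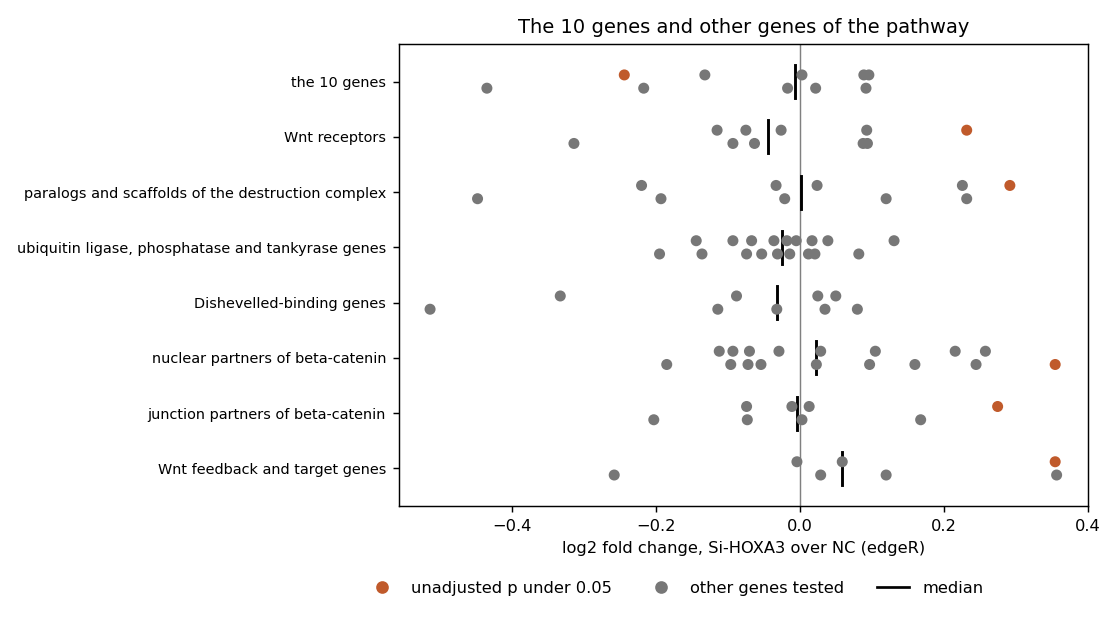
log2 fold change of Si-HOXA3 over NC (horizontal axis) of each tested gene in the set of 10 and in the 7 lists of other pathway genes, with genes at an unadjusted p under 0.05 in orange and the median of each row as a black bar. The medians lie between -0.045 and 0.059, and GSK3B is the only orange point below 0.

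The genes whose profile over the 6 libraries was most like that of CTNNB1 were found by the root mean square difference of log2 CPM, centred on each gene's mean. They were RMI2 at 0.0139, REXO2 at 0.0173, TBC1D31 at 0.0211, TIMM50 at 0.0238 and ANKRA2 at 0.0244 log2 units. RMI2, a genome stability gene, was at 60.1, 68.4 and 71.3 CPM in NC and 58.7, 76.2 and 63.9 CPM in Si-HOXA3, so that like CTNNB1 it was highest in Si-HOXA3 replicate 2. The other members of the complex were not among the nearest. GSK3A came closest at 0.139 log2 units, in place 3525, and FRAT1 was farthest at 0.334. The measure is a description over 6 libraries that share 1 library standing apart.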

How the data were processed

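RNA was sequenced as single reads by the LM-Seq protocol from 3 NC and 3 Si-HOXA3 libraries, and a SMARTER kit is named in the labels as well. The authors deposited 1 table of raw counts, the whole number of reads on each gene in each library, without normalization. The aligner, the counting program, the annotation, the use of strand and the treatment of multi-mapped reads are not given in the sources used here. The submitters' processing notes name the mouse builds GRCm38 and mm10, whereas all 58735 identifiers were human and were found in GENCODE release 29 on GRCh38, which gave symbols, positions and lengths. Reads from a gene and from a partner overlapping it cannot be told apart. All 6 columns were matched to samples by their labels. Within each group no pair of libraries agreed within sampling noise, so none was taken for the same library deposited again.

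Total counts ranged from 14117150 to 15282307 per library, normalization factors from 0.986 to 1.01, and 3 counts, the limit that a count of 0 allows, were worth 0.197 to 0.211 CPM, for counting error only. The test was that of edgeR 4.0.16 in R 4.3.3 (filterByExpr, TMM, robust quasi-likelihood fit, two-sided test), and p-values were adjusted by the Benjamini-Hochberg method over all 16561 genes kept. CPM and fold changes were computed here from the deposited counts. Ratios were compared on log2(CPM + 0.5) by the exact permutation test, which for 3 against 3 cannot go below 0.1. The 10 genes, the pathway and marker lists and the tests were chosen with earlier results of these data known. The genes named were the 10, HOXA3, in each pathway list those with an unadjusted p under 0.05 or else the one with the smallest p, and the 5 genes nearest to CTNNB1 in profile. Alternatives were DESeq2 1.42.0, limma-voom with quality weights (limma 3.58.1), scaling by upper quartile or by library size only, testing with no filter or with CPM above 1 in 3 or more libraries, a replicate block, a pseudocount of 1 CPM, merged exon length, and each library left out in turn. On simulated counts with 16233 genes, edgeR found 95.4% of the genes given a log2 change of 1 and 100% of those given 2, with 8.02% false calls, and 95% of the intervals held the true value. Only genes above a limit on counts were given a change, and no simulated library stood apart as Si-HOXA3 replicate 2 did. Changes as small as those of the 10 genes were not simulated, so these shares do not carry over to them.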

Additional observations from a re-analysis of the deposited data

How the results depend on the processing

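No alternative brought any of the 10 genes past the adjusted threshold, and their lowest adjusted p in any fit was 0.357, for DVL2 in limma-voom with quality weights. Over all genes the number of calls moved more: 1 in edgeR as reported, 38 in DESeq2, 100 with no filter, 47 in limma-voom, and 1 to 24 with a library left out, 24 being without Si-HOXA3 replicate 2. The number of the 10 genes with an unadjusted p under 0.05, 1 as reported, was 0 with upper-quartile normalization and 0 to 2 with a library left out. In limma-voom it was also 1, but the gene was DVL2 (adjusted p = 0.357) and not GSK3B (adjusted p = 0.437). Of all genes, 6.68% had an unadjusted p under 0.05 with upper-quartile normalization, 3.75% to 10.7% with a library left out and 13.3% in limma-voom, beside 6.36% as reported. Of 130 single values of the 10 genes under alternatives, 116 kept their direction and 14 reversed. CTNNB1 turned to 0.004 with upper-quartile normalization and ranged from -0.12 to 0.061 with a library left out. AXIN1 turned to -0.007 with library size only and to -0.027 in limma-voom, and ranged from -0.057 to 0.047. DVL1 ranged from -0.052 to 0.24 and DVL3 from -0.084 to 0.16, DVL1 turning below 0 only without NC replicate 3. All 78 values of the 6 pathway genes named by rule had the same sign as reported and missed the adjusted threshold. The unadjusted p under 0.05 of 4 of them was less stable: with a library left out, their highest unadjusted p in edgeR was 0.138 for FZD8, 0.164 for CSNK1G2, 0.118 for LEF1 and 0.118 for CDH2. FZD8 also lost it in DESeq2, with library size only, with no filter and with the replicate block, CDH2 with the block and CSNK1G2 in limma-voom. HOXA3 ranged from -0.40 without Si-HOXA3 replicate 3 to -0.15 without Si-HOXA3 replicate 1. Its unadjusted p was 0.0385 and 0.374 in these edgeR fits, 0.0315 in limma-voom, and above 0.05 in every other alternative. The lowest adjusted p of HOXA3 in any fit was 0.325, in limma-voom. With a library left out, 1 group has only 2 libraries and the adjusted p rests on a spread pooled over both.

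The groups share replicate numbers, and the labels do not say whether these pair the libraries. Deviations from the group means correlated at 0.158, 0.111 and -0.0714 between same-numbered libraries, and at -0.187 to 0.0979 between libraries of different number. With 3 libraries in a group, these values cannot decide whether the libraries were paired. With the replicate block, 4 of all genes passed the threshold, none of the 10 did, GSK3B had a log2 fold change of -0.25 (adjusted p = 0.733 in edgeR), and the difference in the ratio of GSK3B to GSK3A kept its size with p = 0.25 in the exact test of 3 pairs, the smallest it can give. Depth was lowest for FRAT1, with 29 to 52 counts per library, and for AXIN1 in Si-HOXA3 and DVL2 in NC the spread between libraries was below the counting error of a library.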
